A study of Sus scrofa with 23 samples.

Results

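Semaphorins, ephrins and their receptors were followed in the prefrontal cortex of young pigs. Genes were taken by name from the pig Ensembl annotation: symbols starting with SEMA, PLXN, EPHA, EPHB, EFNA or EFNB, plus NRP1 and NRP2, with at least 10 counts in at least 5 of the 23 libraries. Of 53 genes with such a symbol, 52 met the count rule, out of 15192 genes that met it among 25880 in the table. EFNA4, the remaining gene, had 10 counts in 0 libraries. The 52 genes comprised 20 semaphorins, 11 plexins and neuropilins, 4 ephrin-A and 3 ephrin-B ligands, 9 EphA receptors and 5 EphB receptors. All 52 also entered the tests across 15049 genes.

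Semaphorins are secreted or membrane-bound cues that repel or attract growing axons. Plexins are their signalling receptors, and neuropilins are the co-receptors through which the secreted SEMA3 ligands reach plexin-A proteins. Ephrins are ligands held on the cell surface, ephrin-A by a lipid anchor and ephrin-B by a transmembrane segment, and Eph receptors, which are receptor tyrosine kinases, meet them where cells touch. In the mature cortex these families remain in use at dendritic spines, in glia and in blood vessels.

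Adolescent female Danish slaughter pigs of 20 kg were given 0.08 mg/kg psilocybin, a prodrug of the serotonin receptor agonist psilocin, or saline, once and into a vein. They were awake at dosing and were killed with pentobarbital 1 day or 1 week afterwards. The table held 5 pigs 1 day after saline, 6 pigs 1 day after psilocybin, 6 pigs 1 week after saline and 6 pigs 1 week after psilocybin, each with 1 poly-A selected library. The labels name no genetic change. The series gives 6 pigs per group, and the sixth saline pig at 1 day is not analysed here. Labels divide the pigs into batch 1 (11 pigs) and batch 2 (12 pigs), crossed with the groups, and do not say what a batch was. Each pig is named below by its sample title, and p-values measure the spread between these pigs. Assigned counts ranged from 9504421 to 18654626 per library, and the 52 genes took 0.154% to 0.252% of them.

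Markers of the labelled tissue were present: all 9 neuron and all 10 cortex markers were measured, with summed levels of 9580 to 11600 and 404 to 634 in CPM, the counts scaled to a common library size. Markers of choroid plexus summed to 2.3 to 19.8 CPM, those of striatum to 49.4 to 76.8 CPM. The first principal component of all genes was computed after the batch difference had been removed. On it, libraries from cor_sal_1d_420 (saline, 1 day), cor_sal_1w_245 (saline, 1 week) and cor_psi_1w_427 (psilocybin, 1 week) had the highest scores (40.06, 37.75 and 28.34, with 20.13 next). They also had the 3 lowest shares of counts in the 52 genes (0.154%, 0.168% and 0.188%) and the 3 lowest endothelial marker scores, and the main counts and relations are also given without them. Counting ignored strand and divided reads over overlapping genes, and 8 of the 52 share exon sequence with another gene. SEMA3F shares 2222 of its 6284 exon bases with GNAI2 on the same strand, which averaged 211 CPM against 3.84 CPM for SEMA3F, so the SEMA3F level is uncertain. SEMA3B also has a same-strand neighbour (LSMEM2, 88 bases), and EPHA1, EPHB4, EPHB6, PLXNC1, SEMA4B and SEMA6C overlap genes on the opposite strand. Since strand was ignored, these overlaps can also divide reads. EPHA1 (11.2 CPM) shares 1212 of 5288 exon bases with ZYX (44.8 CPM), so its level is uncertain too. EPHB6 (95.5 CPM) shares 2111 of 7087 with TRPV6 (26.3 CPM), and SEMA6C (22.0 CPM) shares 2162 of 7798 with GABPB2 (3.88 CPM).

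Membrane-bound semaphorins were the most abundant of their family. Levels of different genes were compared as CPM per kilobase of exon, the mean ± SD over 23 pigs. SEMA6B, a transmembrane ligand of plexin-A receptors, was highest at 34.3 ± 4.24 per kilobase and ranged from 27.2 to 46.8. SEMA7A, which is held by a lipid anchor and binds PLXNC1 and integrins, followed at 22.9 ± 3.02. SEMA6B lay above SEMA7A in 23 of 23 pigs and SEMA7A above SEMA4C in 23 of 23. SEMA4C (16.0 ± 2.31) and SEMA4A (15.7 ± 1.64), transmembrane ligands of plexins, could not be ordered, since SEMA4C was higher in 12 of 23 pigs. SEMA4D, the ligand of PLXNB1, averaged 11.2 ± 1.55. Most of the secreted SEMA3 ligands lay at the other end of the scale. SEMA3G was the highest SEMA3 ligand at 4.54 ± 1.01, with a mean above those of the transmembrane SEMA6C (2.83), SEMA4G (2.37) and SEMA5A (2.05). SEMA3E, which binds PLXND1 without a neuropilin, stood at 1.88 ± 0.557. Over both batches together it could not be ordered against SEMA5A, which was higher in 11 of 23 pigs, mostly pigs of batch 2. SEMA3A, SEMA3B, SEMA3D, SEMA3F and SEMA3C lay between 0.763 and 0.506. These last 5 overlapped pig by pig. SEMA3A, for example, was above SEMA3B in 11 of 23. SEMA6D (7.84 ± 0.575) varied least of all 52 genes between pigs, with a coefficient of variation of 7.34%, while SEMA5A (2.05 ± 1.18) varied most at 57.9%. These coefficients pool the batches, between which SEMA5A differed most. With group and batch removed, the SD of log2 CPM was 0.443 for SEMA5A. That was below EPHA6 (0.539), PLXNA4 (0.536), EPHA8 (0.486) and SEMA3A (0.445).

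Plexins formed a narrow band. PLXNA2 (14.6 ± 2.99), PLXND1 (12.6 ± 1.71), PLXNB1 (11.2 ± 1.81), PLXNA1 (9.48 ± 1.72), PLXNA3 (8.88 ± 1.81) and PLXNB2 (8.30 ± 1.28) lay within a factor of 2 of each other, and the higher gene of any adjoining pair led in 14 to 18 of 23 pigs. PLXNB3 and PLXNC1 could not be ordered at 6.51 ± 1.53 and 6.43 ± 1.10, PLXNB3 being higher in 11 of 23. PLXNA4 stood apart by its spread, 3.46 ± 1.52 with a range from 1.27 to 5.68 per kilobase. This spread includes a batch difference, a log2 fold change of 0.955 between batch 2 and batch 1. With group and batch removed, its SD of log2 CPM was 0.536, against a median of 0.252 for the 52 genes. The co-receptors NRP2 (2.39 ± 0.631) and NRP1 (1.86 ± 0.497) were the lowest of this group, NRP2 above NRP1 in 21 of 23 pigs.

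Among ephrins, EFNA3 was listed highest at 22.6 ± 3.22 per kilobase, though its gene model in the table has only 570 exon bases, which raises a value per length. EFNA5 (5.34 ± 0.861), EFNA2 (2.63 ± 0.304) and EFNA1 (1.83 ± 0.381) followed in that order in 23 of 23 pigs. EFNB2 (9.82 ± 1.59) exceeded EFNB3 (4.35 ± 0.602), and EFNB3 exceeded EFNB1 (2.24 ± 0.307), again in every one of the 23 pigs. Receptor levels spanned a wider range. EPHA4, which binds both ephrin classes, led the EphA receptors at 14.7 ± 3.30. EPHA5 and EPHA7 could not be ordered over both batches together at 7.04 ± 2.33 and 6.88 ± 0.990, with EPHA5 higher in 11 of 23 pigs. Their order went with the batch: EPHA5 lay below EPHA7 in batch 1 and mostly above it in batch 2. The log2 fold change of EPHA5 between batch 2 and batch 1 was 0.811. EPHA10 (2.64 ± 0.784), EPHA1 (2.11 ± 0.488) and EPHA8 (1.78 ± 0.596) came next, and EPHA3, EPHA6 and EPHA2 had the lowest means at 0.731, 0.442 and 0.399. EPHA6 and EPHA2 could not be ordered, with EPHA6 higher in 13 of 23 pigs, mostly pigs of batch 2. EPHB6, a receptor without kinase activity, led the EphB receptors at 13.5 ± 1.81. EPHB3 (8.75 ± 1.62), EPHB1 (5.49 ± 0.894), EPHB2 (3.83 ± 0.828) and EPHB4 (0.669 ± 0.154), a receptor best known from veins, followed, each below the one before it in at least 22 of 23 pigs. Over all 52 genes the median level was 5.13 per kilobase, against 5.78 for all 15049 genes. With group and batch removed, the median SD of log2 CPM was 0.252, against 0.225 for all genes.

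**Figure D1:**
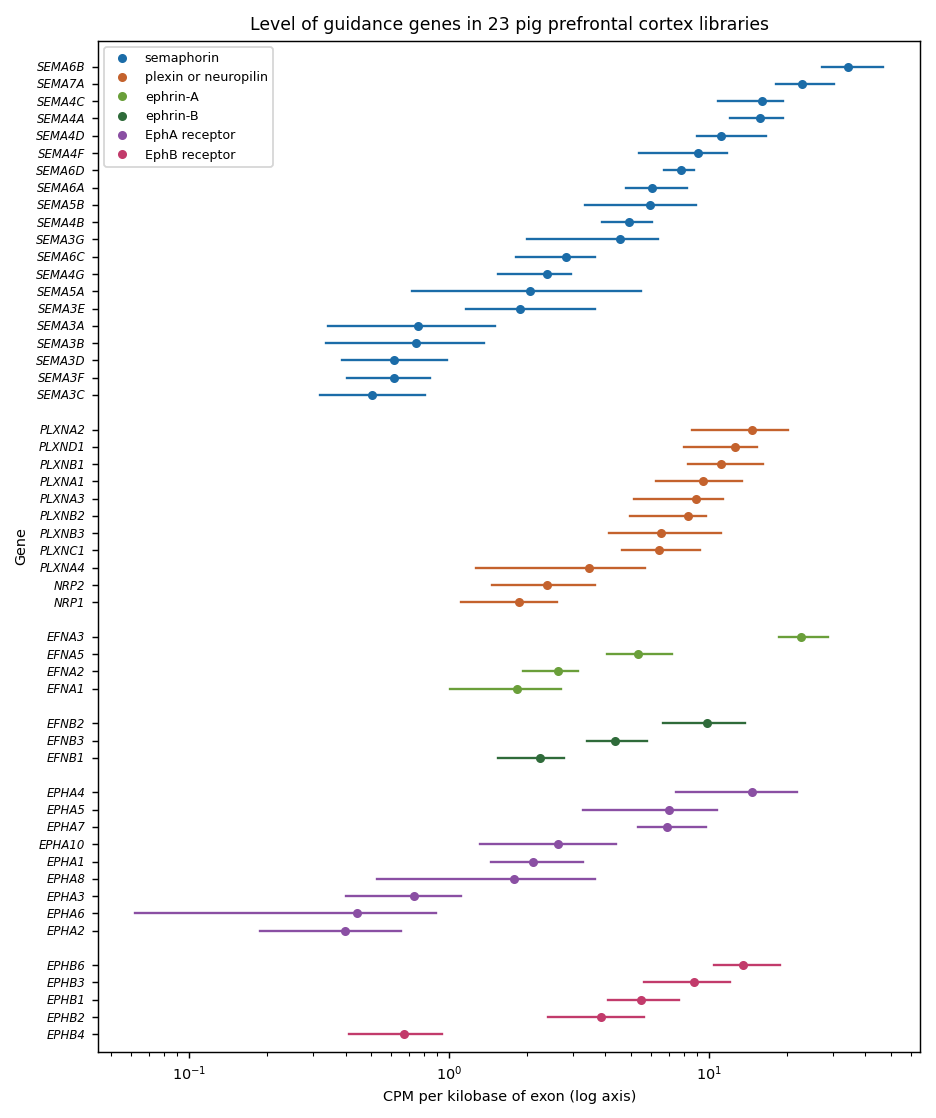
Level of each of the 52 guidance genes in CPM per kilobase of exon (log axis). Points are means over 23 pigs and lines run from the lowest to the highest pig. SEMA6B has the highest mean at 34.3 and EPHA2 the lowest at 0.399.

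The question posed by the design was whether 1 dose of psilocybin changed cortical gene expression, and for how long. One day after the injection 0 of 52 guidance genes passed the test (edgeR quasi-likelihood, Benjamini-Hochberg adjusted p under 0.05 over 15049 genes), beside 0% of all genes. At an unadjusted p under 0.05 stood 1 of the 52, PLXNB1, beside 2.83% of all genes, and 0 genes passed in DESeq2 (452 under that unadjusted p) or in limma-voom (397). Fold changes leaned upward: 38 of 52 were above 0 with a median log2 fold change of 0.09, beside 51.4% and a median of 0.004 for all genes. All 11 plexins and neuropilins were above 0 (median 0.17, from 0.03 for PLXNC1 to 0.31 for PLXNA4), as were all 5 EphB receptors (median 0.15) and all 3 ephrin-B ligands (median 0.11). Semaphorins divided 13 to 7, ephrin-A ligands 2 to 2 and EphA receptors 4 to 5. The lean was smaller without cor_sal_1d_420, a pig of batch 2: 29 of 52 were above 0, the median was 0.04, and 7 of 11 plexins and neuropilins were above 0 with a median of 0.04, and leaving out all 3 libraries standing apart gave the same counts. Within batch 1 (2 saline and 3 psilocybin pigs), which does not hold that pig, 35 of 52 were above 0 with a median of 0.04, and within batch 2 (3 and 3) 37 of 52 with a median of 0.10. Plexins and neuropilins were above 0 for 10 of 11 in each batch, with medians of 0.15 and 0.16. Shares of all genes above 0 in these smaller fits are not given here.

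PLXNB1, the receptor of SEMA4D (chromosome 13, 31114557 to 31135542, build susScr11), was measured at 59.1, 60.1, 61.4, 66.9 and 77.8 CPM in the saline pigs. After psilocybin it lay between 60.1 and 103 CPM with a median of 75.0. The groups overlapped, but 5 of 6 psilocybin pigs lay above 4 of 5 saline pigs. The log2 fold change was 0.28 ± 0.11 (SE), with unadjusted p = 0.0229 and adjusted p = 1.0 in edgeR, and it was 0.20 without cor_psi_1d_417. NRP2 stood at 19.3, 19.6, 20.6, 26.9 and 41.6 CPM after saline and between 23.4 and 35.6 CPM (median 28.1) after psilocybin. The highest and the lowest values were both from saline pigs. Its log2 fold change of 0.24 ± 0.14 was 0.12 without cor_sal_1d_420 and 0.41 without cor_sal_1d_418. EPHB2, a receptor active at excitatory synapses, was 10.1, 12.1, 14.5, 18.3 and 19.8 CPM after saline and 11.2 to 23.8 CPM (median 16.6) after psilocybin, a log2 fold change of 0.25 ± 0.15 (0.15 without cor_sal_1d_420). SEMA5A, a transmembrane semaphorin with thrombospondin repeats, was 2.23, 3.66, 3.68, 6.22 and 8.59 CPM after saline and 2.30 to 15.2 CPM (median 4.93) after psilocybin. The highest value was that of cor_psi_1d_417, and the log2 fold change of 0.43 ± 0.26 was 0.14 without that pig.

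Genes with negative values at 1 day were low in abundance or rested on few pigs. EPHA2 was 1.82, 2.12, 2.41, 3.24 and 3.31 CPM after saline and 1.55 to 2.86 CPM (median 1.96) after psilocybin, with a log2 fold change of -0.35 ± 0.26 (-0.20 without cor_sal_1d_418). SEMA3E was 13.2, 15.4, 18.2, 18.4 and 18.6 CPM after saline and 8.77 to 27.5 CPM (median 12.6) after psilocybin. Of the psilocybin pigs 3 lay below every saline pig and cor_psi_1d_415 lay above them all. These 3 were the psilocybin pigs of batch 1. The log2 fold change was -0.24 ± 0.20, but -0.77 in batch 1 alone and 0.14 in batch 2 alone. It was -0.53 without cor_psi_1d_415 and -0.14 without cor_sal_1d_256. EPHA7 (log2 fold change -0.08) and SEMA3A (-0.18), the founding repellent of the SEMA3 ligands, completed the 4 genes with the smallest p on this side. EPHA7 was -0.003 without cor_sal_1d_418 and -0.16 without cor_sal_1d_260, and SEMA3A was 0.03 without cor_sal_1d_416 and -0.33 without cor_sal_1d_420. No guidance gene separated the groups without overlap, beside 0.126% of all genes. The 95% confidence interval of the log2 fold change held 0 for 51 of 52 genes and lay within a 2-fold change either way for 52 and within 1.5-fold for 43.

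**Figure D2:**
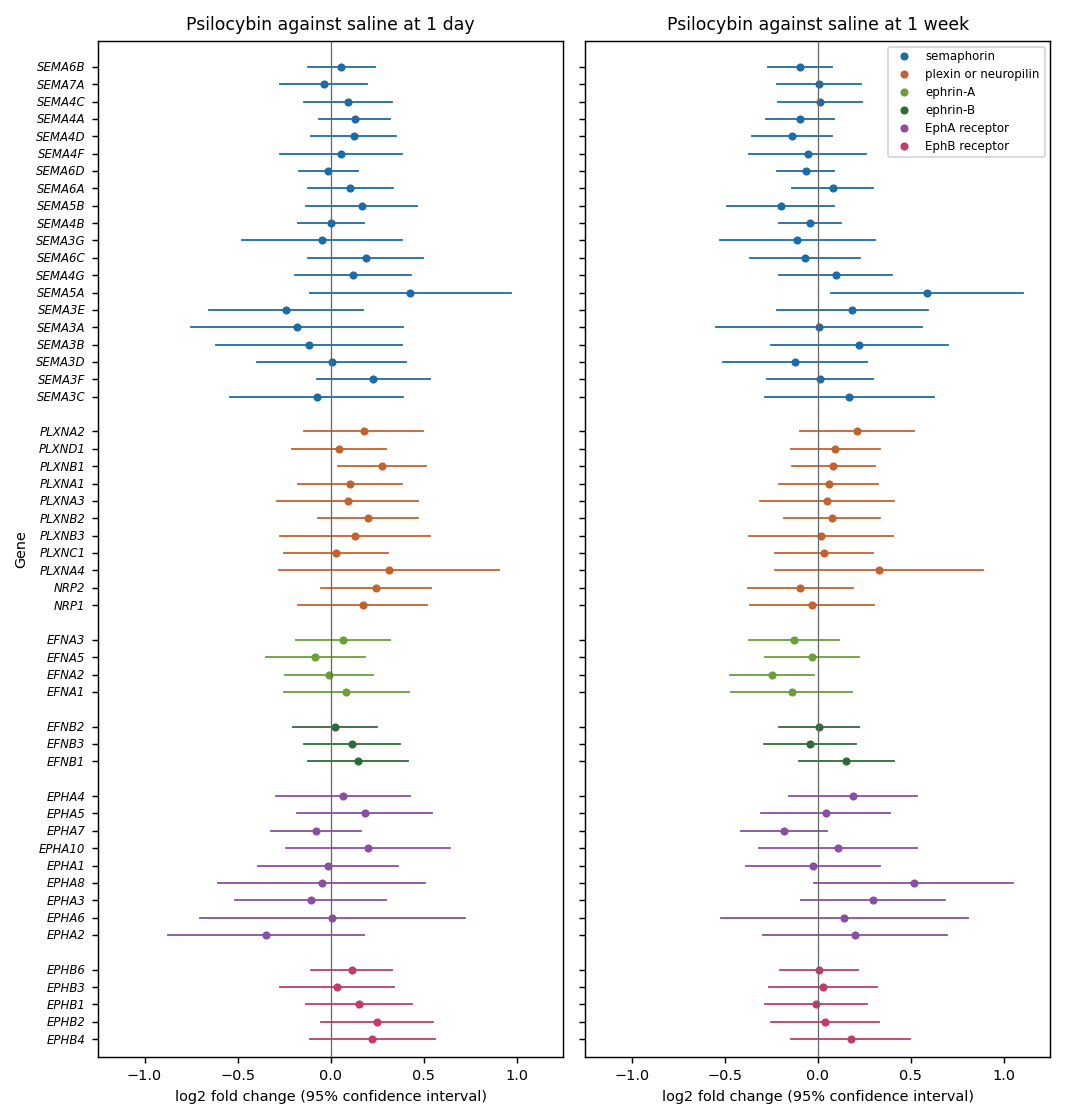
Log2 fold change of each guidance gene, psilocybin against saline, at 1 day (left) and 1 week (right). Points are estimates from all 23 pigs and lines are 95% confidence intervals; the interval excludes 0 for PLXNB1 at 1 day and for SEMA5A and EFNA2 at 1 week, and adjusted p was not under 0.05 for any gene.

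One week after the injection 0 of 52 guidance genes passed, beside 0% of all genes, and 2 of 52 were under an unadjusted p of 0.05, beside 1.99%. No gene passed in DESeq2 (318 under that unadjusted p) or in limma-voom. Of the 52, 32 were above 0 with a median of 0.02, beside 48.8% and a median of -0.003 for all genes. All 4 ephrin-A ligands were below 0 (median -0.13), 7 of 9 EphA receptors were above 0 (median 0.14), and plexins and neuropilins divided 9 to 2, semaphorins 10 to 10. The batches differed: 38 of 52 were above 0 in batch 1 (median 0.13) and 16 of 52 in batch 2 (median -0.09), and all 11 plexins and neuropilins in batch 1 but 5 of 11 in batch 2. Whether the batches differed in the response was not tested, and shares of all genes above 0 by batch are not given here. Leaving out cor_psi_1w_251 brought the count above 0 to 24 of 52 and the median to -0.02, and without the 3 libraries standing apart they were 34 of 52 and 0.04.

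SEMA5A (chromosome 16, 72796449 to 73271224) had the smallest p at 1 week. It lay between 2.00 and 8.48 CPM (median 4.53) after saline and between 3.07 and 12.2 CPM (median 6.53) after psilocybin. In batch 1 the saline pigs measured 2.00, 2.28 and 3.49 CPM and the psilocybin pigs 3.07, 4.49 and 5.48 CPM, and in batch 2 the saline pigs measured 5.58, 5.58 and 8.48 CPM and the psilocybin pigs 7.58, 7.76 and 12.2 CPM. Values overlapped in either batch, with the highest saline pig among the psilocybin pigs. The log2 fold change was 0.59 ± 0.25 (unadjusted p = 0.0281, adjusted p = 1.0 in edgeR), 0.72 in batch 1 alone and 0.48 in batch 2 alone. EFNA2 (chromosome 2, 77164605 to 77179137), an ephrin-A ligand, lay between 6.81 and 8.25 CPM (median 7.46) after saline and between 5.08 and 6.87 CPM (median 6.53) after psilocybin. The lowest saline pigs reached only into the top of the psilocybin range. Its log2 fold change was -0.25 ± 0.11 (unadjusted p = 0.0334, adjusted p = 1.0 in edgeR) and stayed between -0.29 and -0.20 with any 1 pig left out.

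Most other genes named by p at 1 week depended on single pigs or on 1 batch. EPHA8 was 1.56 to 7.71 CPM (median 4.43) after saline and 4.46 to 10.8 CPM (median 5.98) after psilocybin. Its log2 fold change of 0.52 ± 0.26 was 1.21 in batch 1 alone, -0.12 in batch 2 alone and 0.29 without cor_psi_1w_251, which had the 10.8 CPM. EPHA3 (0.30 ± 0.19) ranged from 2.98 to 5.92 CPM after saline and from 4.66 to 6.17 CPM after psilocybin, and PLXNA2 (0.21 ± 0.15, 0.11 without cor_psi_1w_251) from 65.2 to 131 CPM and from 94.0 to 136 CPM. Downward values were smaller: EPHA7 -0.18 ± 0.11 (-0.09 without cor_sal_1w_254), SEMA5B -0.20 ± 0.14 (-0.13 without cor_psi_1w_246) and SEMA4D -0.14 ± 0.10. For SEMA4D a single saline pig, cor_sal_1w_428, at 153 CPM set the value, which was -0.02 without it. No gene separated the groups, beside 0.0465% of all genes, and the interval lay within 2-fold for 50 of 52 genes and within 1.5-fold for 43.

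Signs at 1 day and at 1 week, which come from separate pigs, matched for 30 of 52 genes (57.7%, beside 54.4% of all genes), 24 above 0 at both times and 6 below. The change of the psilocybin effect between the times passed for 0 of 52, beside 0% of all genes, and 0 of 52 were under an unadjusted p of 0.05, beside 2.02% of all genes. The smallest p were those of SEMA5B (-0.37 ± 0.20), SEMA4A (-0.23 ± 0.13), SEMA4D (-0.26 ± 0.15) and NRP2 (-0.34 ± 0.20, as 1 week minus 1 day). Without cor_sal_1d_420 SEMA4A was -0.14 and NRP2 -0.21, and without cor_sal_1w_428 SEMA4D was -0.14. Of the 52 differences 17 were above 0, beside 50.3% of all genes, 27 without cor_sal_1d_420 and 29 without the 3 libraries. Between 1 week and 1 day within saline 0 of 52 passed, beside 0%, with 1 under an unadjusted p of 0.05, beside 2.01%. Here 35 of 52 were above 0, beside 51.7% of all genes, 20 without cor_sal_1d_420 and 21 without the 3 libraries. SEMA3F, a secreted ligand of NRP2, was 2.55, 2.75, 3.33, 3.64 and 3.70 CPM at 1 day and 3.68 to 4.83 CPM (median 4.12) at 1 week, a nearly complete separation. Its log2 fold change was 0.38 ± 0.15 (unadjusted p = 0.0144, adjusted p = 1.0 in edgeR), on counts shared with GNAI2. SEMA3E (-0.42 ± 0.20), PLXNB2 (0.17 ± 0.13, 0.06 without cor_sal_1d_420) and SEMA6A (0.14 ± 0.11, 0.05 without cor_sal_1w_428) followed. Within psilocybin 0 of 52 passed, beside 0%, with 2 under an unadjusted p of 0.05, beside 3.18%. Here 23 of 52 were above 0, beside 54.3% of all genes, 16 without cor_psi_1w_251 and 30 without the 3 libraries. SEMA5B, a transmembrane semaphorin, ranged from 23.6 to 46.5 CPM (median 33.6) at 1 day and from 17.4 to 35.6 CPM (median 26.8) at 1 week. The groups overlapped, and the log2 fold change was -0.40 ± 0.14 (unadjusted p = 0.00897, adjusted p = 0.999 in edgeR). EPHA2 ranged from 1.55 to 2.86 CPM at 1 day and from 1.79 to 4.26 CPM at 1 week, with a log2 fold change of 0.57 ± 0.25 (unadjusted p = 0.03). DESeq2 called 1 gene in each of these time comparisons, neither of them a guidance gene. No guidance gene separated the times, beside 0.14% of all genes within saline and 0.0664% within psilocybin.

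Differences that passed lay between the batches and not between the treatments. Between batch 2 and batch 1, adjusted for the 4 groups, 19 of 52 guidance genes passed (36.5%), beside 32.9% of all genes, so the share was near the background, and 29 of 52 were under an unadjusted p of 0.05, beside 43.6%. Of the 52, 14 rose and 5 fell, beside 16.1% and 16.8% of all genes, and 36 of 52 were above 0 with a median of 0.13, beside 46.5% and a median of -0.02. Receptors and co-receptors that passed all rose: 4 of 11 plexins and neuropilins, 3 of 9 EphA and 2 of 5 EphB receptors. These counts are small, and EPHA6, among the 3 EphA receptors, met the count rule through batch 2. Semaphorins divided 4 to 4, EFNB2 rose and EFNA1 fell. Leaving out 1 pig gave 16 to 26 passing genes, 26 without cor_sal_1d_420, and without the 3 libraries standing apart 27 passed (23 rose, 4 fell). In saline pigs alone only SEMA5A passed, in psilocybin pigs alone 10 did, 9 of them among the 19, and the 19 kept their direction in each of these fits. Shares of all genes in these fits are not given here, so the counts do not set the guidance genes apart from all genes.

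SEMA5A showed the largest batch difference. It ranged from 2.00 to 5.48 CPM (median 3.49) in batch 1 and from 3.68 to 15.2 CPM (median 7.40) in batch 2. The log2 fold change was 1.26 ± 0.18 (adjusted p = 0.00011 in edgeR), 1.22 in saline pigs alone and 1.32 in psilocybin pigs alone. EPHA6, an ephrin-A receptor on chromosome 13, ranged from 0.184 to 1.55 CPM (median 0.614) and from 0.990 to 2.63 CPM (median 1.77), with a log2 fold change of 1.16 ± 0.24 (adjusted p = 0.00119). It had 10 counts in 4 of 11 libraries of batch 1 and in 12 of 12 of batch 2, so it met the count rule through batch 2, and without it 18 of 51 passed (35.3%). EPHA5, a receptor of ephrin-A ligands (chromosome 8, 63286378 to 63604734), ranged from 22.9 to 43.4 CPM (median 39.6) in batch 1 and from 36.4 to 75.5 CPM (median 64.7) in batch 2. Only cor_sal_1d_420 of batch 2 fell inside the batch 1 range. The log2 fold change was 0.81 ± 0.12 (adjusted p = 0.000142).

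Both neuropilins rose. NRP2 (chromosome 15, 108974684 to 109093525) ranged from 16.8 to 26.0 CPM (median 21.5) in batch 1 and from 19.3 to 41.6 CPM (median 31.6) in batch 2, a log2 fold change of 0.58 ± 0.10 (adjusted p = 0.000299). NRP1 (chromosome 10, 56244105 to 56430811) ranged from 9.03 to 14.2 CPM (median 12.4) and from 9.05 to 21.1 CPM (median 19.0), a log2 fold change of 0.57 ± 0.12 (adjusted p = 0.00111). Inside the batch 1 range lay only cor_sal_1d_420 of batch 2 for NRP2, and cor_sal_1d_420 and cor_psi_1w_427 for NRP1. PLXNA4, a plexin that serves SEMA3A and SEMA6 ligands, rose by 0.95 ± 0.20 on the log2 scale (adjusted p = 0.00133), from a median of 17.5 to 43.2 CPM. Smaller rises passed for EPHB2 (0.42), EFNB2 (0.31), EPHB4 (0.44), SEMA5B (0.38), SEMA3D (0.51), EPHA10 (0.52), SEMA3A (0.62) and PLXNA1 (0.27). PLXNA1 passed in 18 of 23 fits with 1 pig left out, whereas each of the other 13 rising genes passed in 23 of 23.

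The 5 genes that fell had log2 fold changes between -0.44 and -0.20. SEMA4B ranged from 31.7 to 45.1 CPM (median 40.6) in batch 1 and from 28.8 to 36.6 CPM (median 33.8) in batch 2, a log2 fold change of -0.25 ± 0.06 (adjusted p = 0.00316), and passed in 23 of 23 fits with 1 pig left out. CIB1, which overlaps it on the other strand, had a log2 fold change of -0.31. SEMA6B, the most abundant gene, ranged from 301 to 448 CPM (median 352) and from 260 to 346 CPM (median 310), a log2 fold change of -0.20 ± 0.06 (adjusted p = 0.0163), and passed in 20 of 23. EFNA1 (-0.32 ± 0.11), SEMA3B (-0.44 ± 0.17) and SEMA4C (-0.21 ± 0.08) lay close to the threshold, with adjusted p of 0.0332, 0.0448 and 0.0487, and passed in 13, 7 and 6 of 23 edgeR fits. Of these 5, only SEMA4B passed in the fit without a filter on low counts, where 16 of 17 passing guidance genes rose. The share of all genes that rose in that fit is not given here. Every one of the 52 genes had overlapping ranges in the 2 batches, beside 0.545% of all genes that did not overlap.

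**Figure D3:**
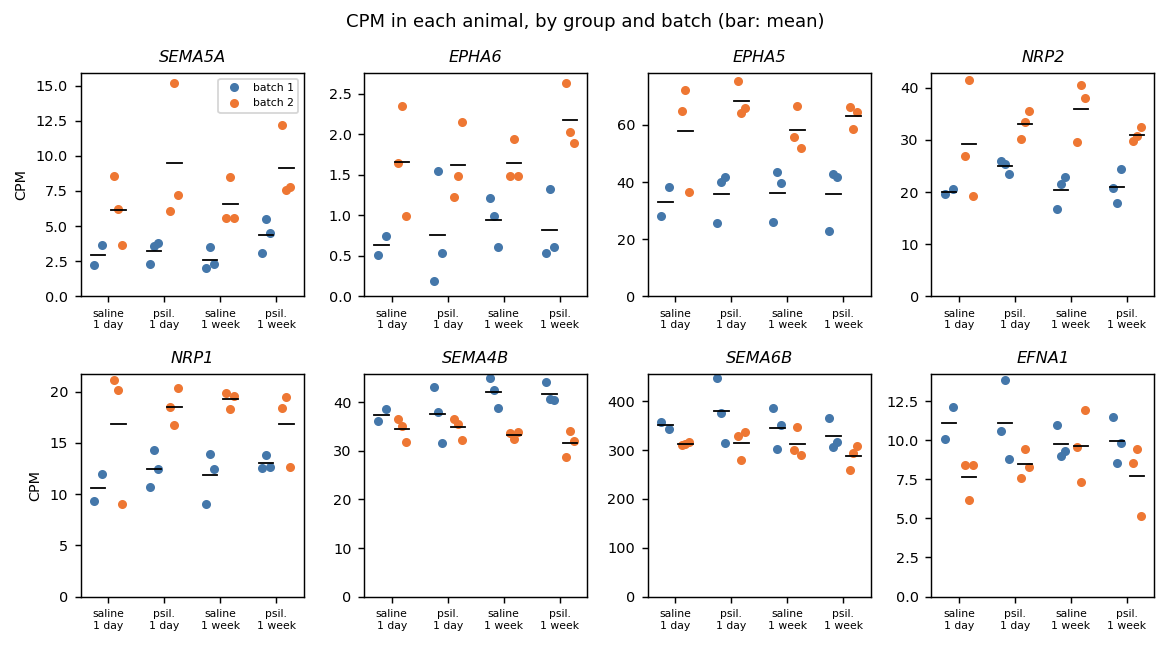
CPM in each pig for 8 guidance genes, by group, with batch 1 in blue and batch 2 in orange; bars are the mean of the pigs of 1 group and batch. SEMA5A, EPHA6, EPHA5, NRP2 and NRP1 lie higher in batch 2 in each group mean, and SEMA4B, SEMA6B and EFNA1 lie lower.

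Long genes held most of the rises between batches, 10 of 14. Gene span, from the first to the last exon base in the table, had a Spearman correlation of 0.68 with the batch log2 fold change over the 52 genes, whereas total exon length had 0.00. Over all 15049 genes the values were 0.36 and 0.22. Genes are not independent points, since all fold changes come from the same 23 libraries. The span correlation was 0.62 in saline pigs alone, 0.67 in psilocybin pigs alone and 0.67 to 0.69 with any 1 pig left out. Without EPHA6, which met the count rule through batch 2, it was 0.66 over 51 genes. Of the 52, 23 were among the 3762 longest of all genes, at 71.6 kb and over, and 10 of these rose and 1 fell, with a median of 0.33 (without EPHA6, 9 of 22 rose and 1 fell, with a median of 0.32). All 3762 had a median of 0.12, 31.6% of them rising and 6.1% falling. Among the other 29 guidance genes 4 rose and 4 fell, with a median of 0.05. All genes spanning up to 10.6 kb had a median of -0.16, with 7.7% rising and 28.4% falling. From 10.6 to 27.5 kb the median was -0.08, with 8.6% rising and 21.6% falling. From 27.5 to 71.5 kb it was 0.01, with 16.6% rising and 11.0% falling. Medians of the guidance genes in these ranges, in the same order, were -0.09, 0.07 and 0.06. SEMA5A spans 474.8 kb and EPHA6 585.4 kb, the longest of the 52, whereas EFNA1 spans 8.5 kb, SEMA4C 10.1 kb and SEMA3B 12.9 kb. EPHB1, at 439.5 kb, had a log2 fold change of 0.14 and did not pass. The part of RNA quality or library preparation was not tested.

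**Figure D4:**
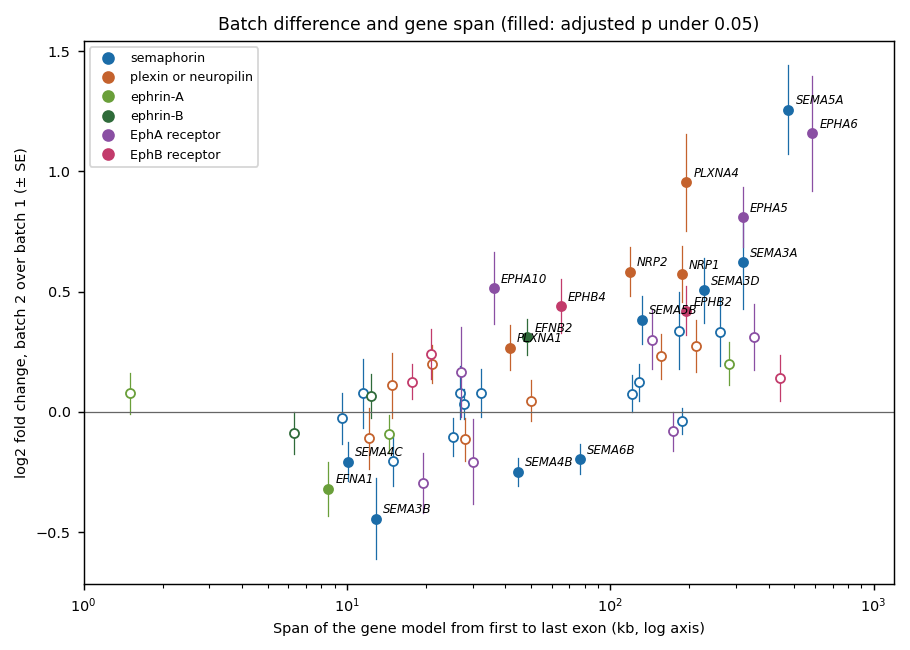
Log2 fold change between batch 2 and batch 1 (± SE) against gene span in kb (log axis) for the 52 guidance genes, coloured by family; filled points passed the adjusted threshold. Long genes such as SEMA5A, EPHA6, PLXNA4 and EPHA5 lie at the top right, and EFNA1, SEMA3B and SEMA4C at the lower left.

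Other guidance systems and signalling partners of these families were also counted. Of 19 netrin family genes and receptors, 11 Slit and Robo genes, 34 co-receptors and effectors of semaphorins and 32 effectors and proteases of Eph signalling, 0 passed in either comparison of psilocybin with saline. Between batches, where 32.9% of all genes passed, the shares were 36.8%, 54.5%, 44.1% and 25.0%, in the order given. Of the netrin genes 7 of 19 passed (6 rose), led by UNC5B, a repulsive netrin receptor, at 0.84 ± 0.13 (adjusted p = 0.000147 in edgeR), from 16.2 ± 4.69 to 28.8 ± 4.09 CPM. Of the Slit and Robo genes 6 of 11 passed (4 rose). SRGAP3, which links Robo to actin, rose by 1.13 ± 0.20, and the Slit receptors ROBO2 and ROBO1 by 0.82 ± 0.13 and 0.51 ± 0.09, while ROBO3 fell by 0.48. Semaphorin co-receptors and effectors divided 8 to 7, with the adhesion molecule CHL1 at 0.45 ± 0.09 and the oxidoreductase MICAL1 at -0.45 ± 0.07. Of the Eph effectors 8 of 32 passed (6 rose), among them ADAM10, a protease that sheds ephrins, at 0.32 ± 0.05. Medians over the 4 lists, in the order given, were 0.13, 0.21, -0.06 and 0.03 beside -0.02 for all genes. TREM2 and TYROBP, in the semaphorin list, are also microglial genes.

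Cell type markers were counted between the batches beside the same 32.9% of all genes. The share that passed was above it for microglia (83.3%), cortex (70.0%), blood (66.7%), neurons (55.6%), astrocytes (50.0%) and oligodendrocyte precursors (40.0%), and below it for mural (22.2%), myelin (20.0%), striatal (20.0%), endothelial (18.2%), meningeal (14.3%) and choroid plexus markers (0%), all in lists of 3 to 12 genes. Microglial markers fell in 10 of 12 cases (median -0.49), with summed levels of 292 to 443 CPM in batch 1 and 183 to 369 CPM in batch 2. Cortex markers rose in 6 of 10 and fell in 1 of 10 (404 to 525 against 491 to 634 CPM), led by BCL11B at 1.29 ± 0.17, while EMX1 fell by 0.30. Neuron markers divided 3 to 2 of 9 (9690 to 11400 and 9580 to 11600 CPM), and astrocyte markers rose in 4 of 8 (2910 to 6450 and 4020 to 5590 CPM). Oligodendrocyte precursor markers rose in 3 and fell in 1 of 10 (586 to 919 and 481 to 1190 CPM), and myelin markers rose in 2 of 10 (5430 to 14200 and 3780 to 23400 CPM). Endothelial markers divided 1 to 1 of 11 (219 to 300 and 195 to 340 CPM), mural markers rose in 2 of 9, meningeal markers in 1 of 7, choroid plexus markers passed in 0 of 3 and the striatal list had 1 of 5 lower. Blood markers fell in 2 of 3, with sums of 25.8 to 501 CPM in batch 1 and 15.6 to 81.2 CPM in batch 2. No list had a marker that passed between psilocybin and saline. The part of these cell types in the batch differences was not tested.

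Some guidance genes are known from particular cells of the brain, and 8 such relations were tested across the 23 pigs: log2 CPM of the gene against a marker score, the mean log2 deviation of the list. P-values are from two-sided permutation tests adjusted over the 8 relations. In tissue RNA, fewer cells of a type and less RNA per cell cannot be told apart. Against the myelin score, SEMA4D, made by oligodendrocytes, had r = 0.50 (rho 0.54, adjusted p = 0.0237 and 0.0138). The relation was 0.69 in batch 1 and 0.40 in batch 2, neither past the adjusted threshold, 0.74 without the 2 pigs with the most extreme scores (cor_sal_1d_418 and cor_sal_1d_420) and 0.80 without the 3 libraries standing apart. PLXNB3 had r = 0.58 (rho 0.43, adjusted p = 0.00804 and 0.0524), with 0.39 and 0.66 within the batches, 0.55 without those 2 pigs and 0.78 without the 3 libraries. By rank PLXNB3 did not pass over all 23 pigs or without those 2 pigs (rho 0.35, adjusted p = 0.169). Without the 3 libraries it passed by rank (rho 0.54, adjusted p = 0.0243). EFNB3, the ephrin known as a myelin-borne inhibitor of axon growth, went the other way with r = -0.63 (rho -0.58, adjusted p = 0.00291 and 0.00952). That relation was -0.46 and -0.68 within the batches, and -0.42 with adjusted p = 0.0781 without the 2 pigs, so it rests in part on them, while without the 3 libraries standing apart it was -0.56 (adjusted p = 0.0185). SEMA6A had r = 0.19 (rho 0.12, adjusted p = 0.382 and 0.648), -0.02 and 0.26 within the batches and 0.36 without the 2 pigs. Without the 3 libraries it was 0.46 with adjusted p = 0.0497 (rho 0.38, adjusted p = 0.115).

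Against the endothelial score, PLXND1, the vascular receptor of SEMA3E, had r = 0.80 (rho 0.74, adjusted p = 8e-05 and 0.00088), with r of 0.79 and 0.81 within the batches. By rank neither batch passed, with rho 0.70 (adjusted p = 0.0973) in batch 1 and 0.46 (adjusted p = 0.154) in batch 2. Without the 2 pigs with the most extreme scores, cor_sal_1d_420 and cor_psi_1w_427, it was 0.67 (rho 0.65), and without all 3 libraries standing apart 0.53 (rho 0.60, adjusted p = 0.0231 and 0.0166). SEMA3G had r = 0.80 (rho 0.69, adjusted p = 8e-05 and 0.00176), but 0.36 in batch 1 and 0.93 in batch 2, 0.62 without the 2 pigs and 0.52 without the 3 libraries. EPHB4 had r = 0.51 (rho 0.65, adjusted p = 0.0198 and 0.00283), 0.23 and 0.67 within the batches, 0.59 without the 2 pigs and 0.68 without the 3 libraries. EFNA1 had r = 0.23 (rho 0.10, adjusted p = 0.341 and 0.648), -0.15 in batch 1 and 0.65 in batch 2, -0.14 without the 2 pigs and -0.05 without the 3 libraries. With group and batch means removed it was 0.46 (rho 0.47, adjusted p = 0.0314 and 0.0263). The r of SEMA3G, EPHB4, PLXNB3 and EFNB3 in batch 1 alone did not pass (adjusted p = 0.441, 0.654, 0.441 and 0.409). By rank, EPHB4 (rho 0.55, adjusted p = 0.144) and EFNB3 (rho -0.50, adjusted p = 0.154) did not pass in batch 2 either.

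**Figure D5:**
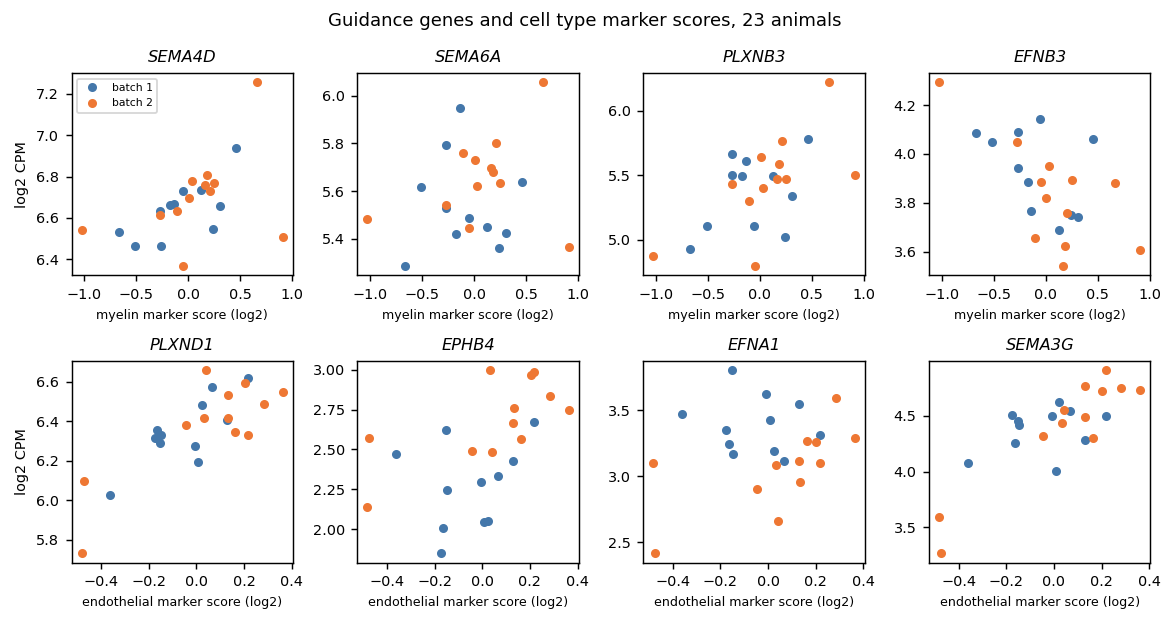
Log2 CPM of 8 guidance genes (vertical axes) against the myelin score (upper row) or the endothelial score (lower row), 1 point per pig, batch 1 in blue and batch 2 in orange. PLXND1 and SEMA3G rise with the endothelial score, and 3 pigs lie at scores of -0.36 and below; EFNB3 declines with the myelin score.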

How the data were processed

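RNA of the prefrontal cortex of 23 pigs was sequenced, and the table deposited by the authors holds expected counts per Ensembl gene. Per the submitters' processing notes, fastp 0.20.0, STAR 2.6c and featureCounts 1.5.1 were used with build susScr11. Per the file headers, strand was ignored and reads over several genes were divided in fractions, so 72.2% of values were whole (tolerance 0). Counts were rounded to whole numbers. Symbols were found for 14857 of 25880 identifiers.

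After edgeR's filterByExpr (at least 10 counts, total at least 15), 15049 genes remained. Libraries were scaled by TMM and tested with edgeR 4.0.16 (R 4.3.3, robust quasi-likelihood F test, two-sided) in 1 model of 4 groups plus batch, with Benjamini-Hochberg adjustment over all genes. No animal number occurred in 2 groups, so nothing was paired. The members, lists and marker relations were chosen with earlier results of these data known. Genes given by pig were, per direction, the 4 with the smallest p in each comparison of psilocybin with saline and the 5 between batches, the 4 with the smallest p in each other comparison, and the highest and lowest of each family by level. Relations used log2 CPM (prior count 2) and 100000 permutations.

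Alternatives were RLE factors, other filters, DESeq2 1.42.0, limma-voom (limma 3.58.1), a non-robust fit, no batch term, each batch alone, the compared groups alone, each treatment alone, and each pig left out. The fit without 3 libraries and the span correlation without EPHA6 were chosen after seeing the data. The comparison with gene span as a whole was not among the planned results. Shares of all genes printed beside counts are those of the main fit. Models were tested on simulated data. Depth was 9504421 to 18654626 counts per library, and the confidence intervals (95%) give the precision.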

Additional observations from a re-analysis of the deposited data

Results flagged for a closer look

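Values of 29 guidance genes were examined in each of the 4 groups, 116 sets of 5 or 6 pigs, for a pig far from the others of its group (Dixon's test at 95%). Chance alone flags about 1 in 20 such sets, and 6 stood out. EPHA4 measured 83.1 CPM in cor_sal_1w_426 (saline, 1 week), whose group otherwise ranged from 49.5 to 57.6, and SEMA4A measured 65.5 CPM in the same pig, against 49.8 to 53.8. SEMA4D measured 153 CPM in cor_sal_1w_428 (saline, 1 week), against 87.9 to 109. EPHA8 measured 10.8 CPM in cor_psi_1w_251 (psilocybin, 1 week), against 4.46 to 6.17. EPHB2 was low at 10.4 CPM in cor_psi_1w_246 (psilocybin, 1 week), against 17.0 to 18.2. SEMA3E measured 27.5 CPM in cor_psi_1d_415 (psilocybin, 1 day), against 8.77 to 13.5.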

How the results depend on the processing

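With each pig left out in turn, 0 guidance genes passed in the 5 comparisons of treatment and time, and 16 to 26 passed between batches. The count between batches was 1 in saline pigs alone and 10 in psilocybin pigs alone, fits with fewer samples. Shares of all genes in these fits are not given here, so the counts cannot be set against the background. SEMA6B held 9.78% of the summed level of the 52 genes per kilobase, and 15.6% when exon length was not used. Among named genes, directions turned in these fits, and the cause was not tested: SEMA3E at 1 day was 0.14 in batch 2 alone, EPHA8 at 1 week -0.12 in batch 2 alone, SEMA4D at 1 week 0.077 in batch 1 alone, SEMA6A between times in saline -0.008 in batch 1 alone, and SEMA3A at 1 day 0.03 without cor_sal_1d_416 (range -0.33 to 0.03). EFNA1 against the endothelial score was -0.05 without the 3 libraries standing apart, -0.15 in batch 1 and -0.14 without the 2 extreme pigs, and SEMA6A against the myelin score was -0.02 in batch 1. Medians of the 52 genes kept their sign in every fit at 1 day and between batches. At 1 week the median turned in batch 2 alone (-0.09) and without cor_psi_1w_251 (-0.02), and was 0 to 3 decimals without cor_sal_1w_245. The change between the times turned in batch 1 alone (0.06) and without cor_sal_1d_420 (0.015) or the 3 libraries (0.03), and the times in saline in the same fits (-0.04, -0.03 and -0.02). The times in psilocybin turned in batch 1 alone (0.08) and without cor_psi_1d_415 (0.001), cor_psi_1w_427 (0.02) or the 3 libraries (0.03). No paired analysis was possible because 0 animal numbers occur in more than 1 group. With 5 or 6 pigs a group, median standard errors of 0.15 and 0.14 on the log2 scale at 1 day and 1 week limit what could be seen.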
